A study of Mus musculus with 6 samples.

Results

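The genes described here encode G protein-coupled receptors other than chemokine receptors, chosen by symbol from the expression table of alveolar macrophages, the phagocytes that live in the airspaces of the lung. The symbols taken were the numbered Gpr genes and the Gprc and adhesion (Adgr, other than Adgrl) genes. Also taken were receptors for nucleotides, prostaglandins, sphingosine 1-phosphate, lysophosphatidic acid, adenosine, and hydroxycarboxylic and fatty acids. Receptors for histamine, beta-adrenergic amines, chemerin, cannabinoids and cysteinyl leukotrienes completed the set. They numbered 140 of 17142 genes in the table, and 61 of the 140 had at least 1 TPM in at least 3 of the 6 libraries and were tested. The symbol rule also took in 3 genes that are no receptors: Ptgr1 and Ptgr2, which encode prostaglandin reductases, and Ptgfrn, which encodes an immunoglobulin-family partner of the prostaglandin F receptor. Several numbered Gpr genes (Gpr107, Gpr108, Gpr137, Gpr137b, Gpr137c, Gpr155 and Gpr89) encode multi-pass proteins of Golgi, lysosomal or other inner membranes. Bulk RNA-seq had been made from 3 libraries of Trim33 knockout mice and 3 libraries of wild-type mice, all from primary alveolar macrophages of allergen-exposed animals, with a single allergen challenge in the study's title. Trim33 encodes TIF1γ, a chromatin-bound protein that works with SMAD proteins. The sources used here name neither the allergen, nor the kind of knockout allele or any driver of its deletion, nor the strain, sex and age of the mice. Whether libraries of 1 genotype stem from different mice is likewise unstated, and the p-values therefore cover the spread among these 6 libraries, which could be technical.

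G protein-coupled receptors span the membrane several times and pass an outside signal to a heterotrimeric G protein. Receptors coupled to Gs raise cyclic AMP through adenylyl cyclase, those coupled to Gi lower it, and those coupled to Gq open the phospholipase C and calcium route. In macrophages, cyclic AMP raised by adenosine, prostaglandin E2 or beta-adrenergic amines is known to restrain inflammatory cytokine output, nucleotides released from damaged cells steer migration and engulfment, and receptors for lipids and metabolites adjust activation to the surroundings.

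Levels are in TPM, which scales reads by gene length and by the library's total; read depth is unknown here, and values carry no counting interval. The genotype labels were checked on Trim33 itself, which had 2.63, 3.34 and 3.98 TPM in knockout replicates 1, 2 and 3, against 6.83, 10.97 and 6.86 TPM in wild type. Its log2 difference was -1.08 ± 0.19 (SE; limma adjusted p 0.0114), and the two-sided exact permutation test gave 0.1, the smallest p that 3 libraries against 3 allow. Of 11111 genes tested over the whole table, 4.47% were higher and 10.2% lower in knockout at an adjusted p under 0.05. The median log2 difference of all tested genes was -0.15 on the TPM scale, -0.0057 after median-ratio scaling and -0.049 after quantile normalization. Receptor differences below are on the TPM scale and carry this shift. The factors by which median-ratio scaling divided the libraries were 1, 1.167 and 1.018 in wild-type replicates 1, 2 and 3. In knockout they ran from 0.939 to 0.960. On the TPM scale wild-type replicate 2 therefore lay high over much of the table. Calls over the table were 30.6% higher ones on the TPM scale, 60% (592 higher, 394 lower) after median-ratio scaling and 48.8% (559 higher, 587 lower) after quantile normalization.

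Of the 61 tested members, 4 were higher in Trim33 knockout (6.56%, against 4.47% of all tested genes) and 11 lower (18%, against 10.2%), while 46 did not pass. The higher genes were Gpr84, Gpr176, Adora2a and Gpr132. The lower genes included Gprc5c, P2ry2, Adora3, Lpar5, Ffar2, Ptger2, Gpr34, Gpr55, Cnr2 and Gpr160. None of the 3 non-receptors was among them. The members' median log2 difference was -0.10, beside -0.15 over all genes tested, and 22 of the 61 differences were positive. Differences of more than 0.5 in either direction were found for 20 of the 61 members (32.8%) and for 12.1% of all genes tested. The genotypes did not overlap for 28 of the 61 members (45.9%), near the 44.4% of all genes tested, with 9 members above in knockout (against 9.84% of all genes) and 19 below (against 34.6%). Counts over the tested members are descriptions and support nothing by themselves, since Adora2a and Gpr176 passed the filter only through the knockout libraries and Gpr34 only through the wild-type libraries. After median-ratio scaling 4 members were higher and 7 lower, and after quantile normalization 3 and 8. With any 1 library left out, between 1 and 6 members were higher and between 3 and 17 lower. The fewest lower, 3, remained without wild-type replicate 3, and the most, 17, without wild-type replicate 1. In bulk RNA, a smaller number of receptor-bearing cells and less receptor RNA per cell cannot be told apart.

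**Figure D1:**
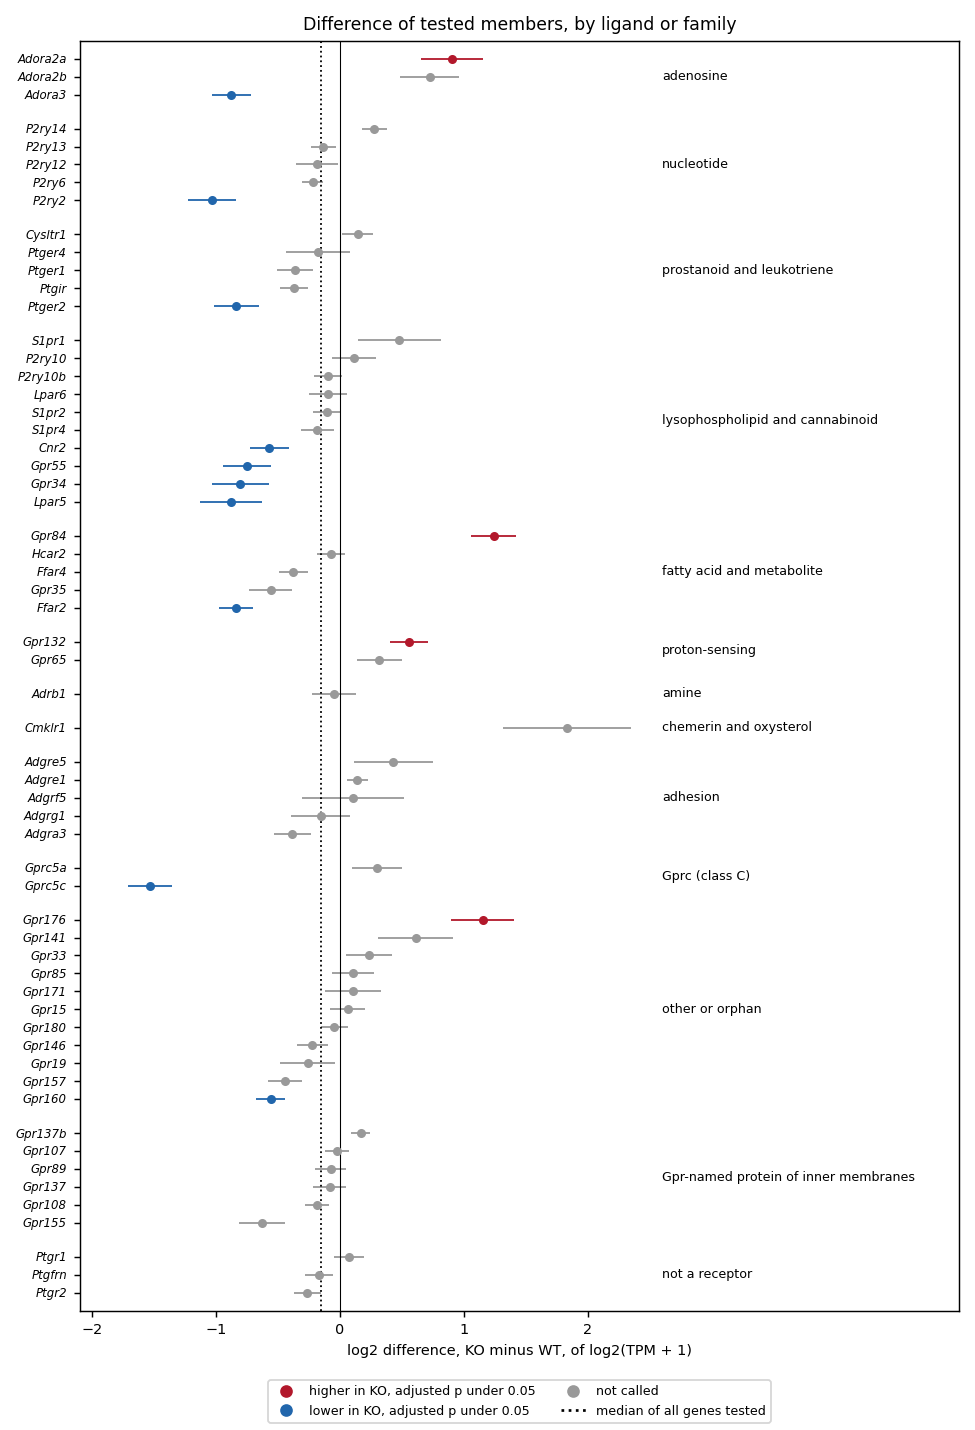
Log2 difference (knockout minus wild type, of log2(TPM + 1)) for 59 tested members, grouped by ligand or family, with bars for the standard error (n = 3 libraries per group) and a dotted line at the median of all genes tested. Red points are higher and blue points lower at an adjusted p under 0.05, from Gpr84 at 1.24 to Gprc5c at -1.53. Grey points did not pass, Cmklr1 at 1.83 among them.

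The most abundant members did not include most of the changed ones. By mean TPM the order was led by Gpr137b, which encodes a lysosomal membrane protein, at 363.9 ± 21.0 TPM in knockout and 323.5 ± 7.07 TPM in wild type (SD, n = 3 each). P2ry14, the receptor for UDP-glucose and related sugars, followed with 206.2 ± 21.3 TPM in knockout and 169.6 ± 14.1 TPM in wild type. Adgre1, the adhesion receptor whose product is the standard mouse macrophage surface antigen, had 186.6 ± 11.4 TPM in knockout and 169.0 ± 10.5 TPM in wild type. Hcar2, the receptor for niacin and beta-hydroxybutyrate, had 134.9 ± 18 and 141.6 ± 15 TPM in knockout and wild type. Next came Ptgfrn at 88.98 and 100.6 TPM in knockout and wild type. Gpr108, a Golgi protein gene, averaged 81.4 TPM in knockout and 92.96 TPM in wild type, and the UDP receptor gene P2ry6 78.4 TPM in knockout and 91.6 TPM in wild type. Of these 7 genes none passed the limma test, with 2 at an unadjusted p under 0.05 (P2ry14 and P2ry6), and adjusted p ran from 0.0786 for P2ry14 to 0.655 for Hcar2. Without wild-type replicate 1, P2ry14 (adjusted p 0.0414), P2ry6 (0.0332) and Gpr108 (0.0439) passed, and with library weights P2ry14 (0.0125) and P2ry6 (0.0350) did. In all, 35 of the 140 members averaged more than 10 TPM and 73 did not reach 1 TPM in any library.

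**Figure D2:**
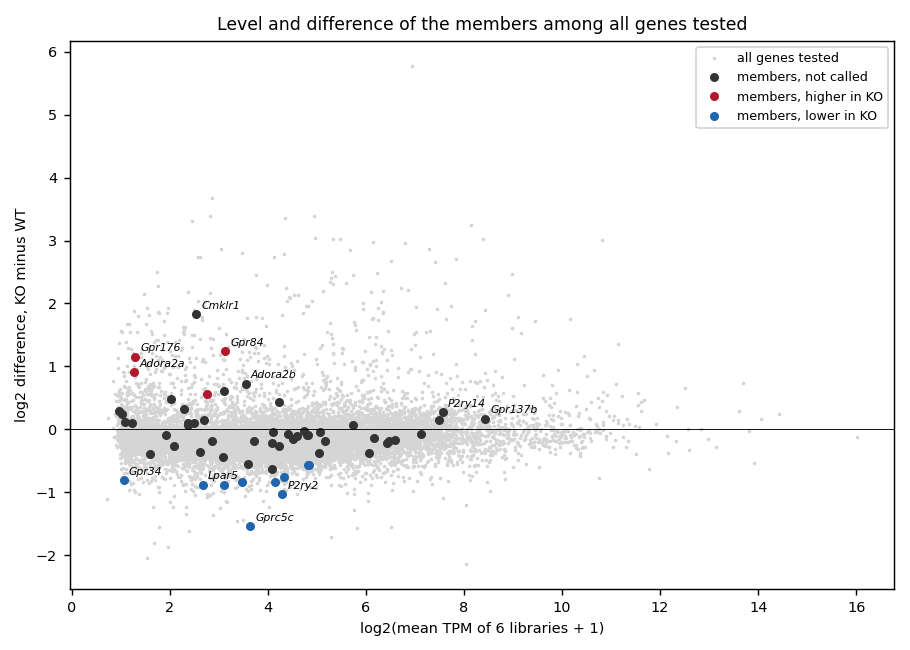
Log2 difference (knockout minus wild type) against log2(mean TPM of 6 libraries + 1), with every tested gene in pale grey and 59 tested members on top. Members higher in knockout (red) lie at low to middle levels. The differences of members lower in knockout (blue) reach from Gpr160 at -0.56 down to Gprc5c at -1.53. The most abundant members, Gpr137b and P2ry14, are not called.

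Promoter sequence was at hand for 105 of the 140 members and for 11 of the 15 called ones, from RefSeq on GRCm38.p6. The 250 bases before a transcript start of the promoter table are printed 5′ to 3′ for the called genes Gpr84 and Gpr132, higher in knockout, and P2ry2 and Adora3, lower in knockout, to show the letters beside a start in genes that moved in opposite directions. The P2ry2 and Adora3 windows end where the gene span given below begins. The table's Gpr84 and Gpr132 starts lie inside the gene spans given below, so that most of the Gpr84 window and all of the Gpr132 window fall within the gene as annotated from its outermost start. Capitals mark the SMAD box CAGAC on either strand (its other-strand reading is GTCTG), searched because TIF1γ is known to work with SMAD proteins, and the core GAGGAA on either strand, which the macrophage factor PU.1 reads. The windows are chr15:103310439-103310688 (minus strand) for Gpr84, chr12:112860917-112861166 (minus strand) for Gpr132, chr7:101012054-101012303 (minus strand, the first of 2 annotated starts) for P2ry2 and chr3:105904171-105904420 (plus strand) for Adora3.
Gpr84: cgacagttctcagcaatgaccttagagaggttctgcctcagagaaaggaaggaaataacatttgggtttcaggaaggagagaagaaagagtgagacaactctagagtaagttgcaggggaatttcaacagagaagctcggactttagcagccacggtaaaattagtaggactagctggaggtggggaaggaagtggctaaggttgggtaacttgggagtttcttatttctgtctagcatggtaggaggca
Gpr132: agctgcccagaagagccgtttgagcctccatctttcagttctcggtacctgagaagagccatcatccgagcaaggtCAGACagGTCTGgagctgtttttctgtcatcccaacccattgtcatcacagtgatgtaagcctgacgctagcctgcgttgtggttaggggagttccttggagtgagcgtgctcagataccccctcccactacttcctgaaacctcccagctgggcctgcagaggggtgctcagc
P2ry2: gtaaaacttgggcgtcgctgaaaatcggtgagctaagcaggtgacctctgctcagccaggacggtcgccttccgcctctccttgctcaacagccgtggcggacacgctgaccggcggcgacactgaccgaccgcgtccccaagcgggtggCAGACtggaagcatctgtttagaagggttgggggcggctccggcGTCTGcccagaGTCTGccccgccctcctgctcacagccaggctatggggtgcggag
Adora3: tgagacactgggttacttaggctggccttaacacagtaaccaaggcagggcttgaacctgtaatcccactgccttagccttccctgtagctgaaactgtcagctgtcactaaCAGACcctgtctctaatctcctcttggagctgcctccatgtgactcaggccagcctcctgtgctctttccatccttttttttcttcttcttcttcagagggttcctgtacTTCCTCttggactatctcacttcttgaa
The Gpr84 window held neither motif, the Gpr132 window 2 SMAD boxes that face each other 2 bases apart, the P2ry2 window 3 SMAD boxes, and the Adora3 window 1 SMAD box and 1 PU.1 core. No match in these windows overlapped another. Over all tested genes with a promoter, 40.2% of 11417 windows held at least 1 SMAD box, 10.7% at least 2 and 2.1% at least 3, and 22.7% held the PU.1 core. Over the tested members the shares were 44.9% and 30.4% of 69 windows. Of the windows of members higher in knockout 1 of 3 held a SMAD box, and of those lower in knockout 7 of 14. A match is a run of letters, and neither binding nor a cause can be read from it.

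Among the adenosine receptors, the members moved in opposite directions. Adora2a (Entrez gene 11540, chromosome 10, 75316877 to 75334792), the Gs-coupled receptor through which adenosine damps inflammatory cells, had 3.26, 2.04 and 1.2 TPM in knockout replicates 1, 2 and 3, against 0.99, 0.61 and 0.35 TPM in wild type. Every knockout library was above every wild-type library at a low level. The mean was 3.33-fold higher in knockout and the log2 difference was 0.91 ± 0.25 (SE, limma adjusted p 0.0411). Adora3 (chromosome 3, 105904421 to 105908928), the Gi-coupled receptor, had 5.81, 4.16 and 5.23 TPM in knockout, against 8.39, 10.46 and 11.62 TPM in wild type, with no overlap. Its log2 difference was -0.88 ± 0.16 (adjusted p 0.0112), with a mean 0.499 times that of wild type. Adora3 shares its locus and strand with Tmigd3, so their reads may not have been separable. Adora2b, the low-affinity Gs-coupled receptor, had 11.81, 13.02 and 15.08 TPM in knockout, against 11.44, 5.03 and 7.53 TPM in wild type. It lay above in every knockout library but did not pass (adjusted p 0.0693), and it passed without wild-type replicate 1 (0.00419). Adora1 was at most 0.04 TPM in any library. The Adora2a call ended without knockout replicate 1 or 2 or wild-type replicate 2 or 3, with a pseudocount of 5, without the filter, after quantile normalization and with plain variance moderation, and the Adora3 call ended without wild-type replicate 3.

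In the nucleotide family, P2ry2 fell while the other tested members did not pass. P2ry2 (Entrez gene 18442, chromosome 7, 100996568 to 101012053), the Gq-coupled receptor for extracellular ATP and UTP, had 9.86, 11.73 and 13.40 TPM in knockout replicates 1, 2 and 3, against 18.97, 33.79 and 23.48 TPM in wild type. The groups did not overlap, and wild-type replicate 2, the library with the highest median-ratio factor, was the highest of all. The log2 difference was -1.03 ± 0.20 (limma adjusted p 0.0163), and the knockout mean was 0.459 times that of wild type. The call ended without knockout replicate 1 or 2 or wild-type replicate 3. The adjacent gene on chromosome 7 is P2ry6, a Gq-coupled UDP receptor gene, which had 77.32 to 80.07 TPM in knockout and 84.73 to 98.67 TPM in wild type and did not pass (adjusted p 0.0933), except in the alternatives given above. On chromosome 3 the genes Gpr171, P2ry14, P2ry13 and P2ry12 lie between 59096448 and 59262985. Within that stretch the Gi-coupled ADP receptor genes P2ry12 and P2ry13 averaged 11.2 and 67.3 TPM in knockout and 12.95 and 74.2 TPM in wild type, with log2 differences of -0.18 and -0.13, while that of P2ry14 was 0.28. None of these 4 genes passed. Med12l spans P2ry12, P2ry13, P2ry14 and Gpr171 on the other strand, at 2.43 TPM in knockout and 1.86 TPM in wild type, and use of strand is not given in the sources used here.

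Prostanoid receptors were read next to the leukotriene receptor Cysltr1. Ptger2 (Entrez gene 19217, chromosome 14, 44988111 to 45003820), the Gs-coupled EP2 receptor for prostaglandin E2, had 6.59, 6.63 and 7.36 TPM in knockout replicates 1, 2 and 3, against 10.37, 18.13 and 11.61 TPM in wild type. The knockout libraries were alike and below all wild-type libraries. Its log2 difference was -0.83 ± 0.18 (limma adjusted p 0.0209), with a mean 0.513 times that of wild type. The call ended without knockout replicate 1 or 2 or wild-type replicate 3, and without the filter. Ptger4, the other Gs-coupled receptor for the same prostaglandin and the more abundant, had 21.79, 36.49 and 41.08 TPM in knockout, against 36.00, 29.30 and 45.31 TPM in wild type, so the groups overlapped (adjusted p 0.640). The prostacyclin receptor gene Ptgir averaged 27.6 ± 2.77 TPM in knockout and 35.97 ± 4.20 TPM in wild type (adjusted p 0.0548) and the Gq-coupled Ptger1 4.35 ± 0.409 and 5.90 ± 0.786 TPM (adjusted p 0.0973). Neither of these passed, although neither overlapped between groups. Ptger1 passed without wild-type replicate 1 (adjusted p 0.0382) and with library weights (0.0415), and Ptgir with library weights (0.0373). Cysltr1, the receptor for leukotriene D4, had 5.77 to 5.80 TPM in knockout and 4.76 to 5.63 TPM in wild type (adjusted p 0.417). The remaining prostanoid and leukotriene receptor genes among the members (Ptgdr, Ptgdr2, Ptger3, Ptgfr and Cysltr2) reached at most 0.28 TPM. Receptor genes of this kind that the symbol rule did not match were not read.

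Receptors for lysophospholipids and cannabinoids held 4 lower members of 10 tested and no higher one, where 10.2% of all tested genes were lower and 4.47% higher. After median-ratio scaling all 4 calls ended, and 3.55% of all tested genes were lower. Gpr55 (chromosome 1, 85933221 to 85991583), which responds to lysophosphatidylinositol, had 10.75, 15.68 and 15.58 TPM in knockout replicates 1, 2 and 3, against 18.94, 31.14 and 23.04 TPM in wild type (log2 difference -0.75 ± 0.20, limma adjusted p 0.0391). Cnr2 (chromosome 4, 135895189 to 135920219), the Gi-coupled cannabinoid receptor of immune cells, had 22.43, 21.26 and 20.29 TPM in knockout, against 25.50, 42.43 and 30.42 TPM in wild type (-0.57 ± 0.16, adjusted p 0.0445). In both genes the knockout libraries lay below all wild-type libraries. Wild-type replicate 2, the library with the highest median-ratio factor, was the highest in both. Lpar5 (chromosome 6, 125067844 to 125086129), a lysophosphatidic acid receptor gene, had 2.69, 3.39 and 3.99 TPM in knockout, against 4.57, 10.74 and 6.66 TPM in wild type (-0.88 ± 0.25, adjusted p 0.0480). Gpr34 (chromosome X, 13622650 to 13640859), the lysophosphatidylserine receptor gene of microglia and other macrophages, had 0.28, 0.48 and 0.72 TPM in knockout, against 1.02, 2.55 and 1.41 TPM in wild type (-0.80 ± 0.23, adjusted p 0.0449). It lies inside Cask, on the other strand, which averaged 8.52 TPM in knockout and 10.7 TPM in wild type. These 4 calls each ended without knockout replicate 1 or 2 or wild-type replicate 2 or 3, after median-ratio scaling, without the filter and with plain variance moderation. Those of Cnr2, Lpar5 and Gpr34 also ended without knockout replicate 3, those of Gpr55, Cnr2 and Lpar5 after quantile normalization, those of Cnr2 and Lpar5 on FPKM values, and those of Lpar5 and Gpr34 with a pseudocount of 5. The sphingosine 1-phosphate receptor genes S1pr2 and S1pr4 averaged 22.1 and 5.78 TPM in knockout and 23.96 and 6.68 TPM in wild type and did not pass. P2ry10b, of the lysophosphatidylserine receptors, averaged 26.0 TPM in knockout and 27.96 TPM in wild type (adjusted p 0.548), and its close paralog P2ry10 averaged 1.19 TPM in knockout and 1.02 TPM in wild type. Lpar6, another lysophosphatidic acid receptor gene, had 2.31 to 3.20 TPM in knockout and 2.69 to 3.16 TPM in wild type (adjusted p 0.667).

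Receptors for fatty acids and metabolites held the member with the smallest adjusted p among the higher ones. Gpr84 (Entrez gene 80910, chromosome 15, 103308233 to 103310670), a Gi-coupled receptor for medium-chain fatty acids that is known to be induced in activated macrophages, had 12.49, 10.54 and 10.47 TPM in knockout replicates 1, 2 and 3, against 5.67, 4.07 and 3.0 TPM in wild type. All knockout values lay far above the wild-type values. The mean was 2.63-fold higher and the log2 difference 1.24 ± 0.18 (limma adjusted p 0.00495). Its call held in all 16 alternatives, with log2 differences from 0.81 to 1.43. Ffar2 (Entrez gene 233079, chromosome 7, 30818031 to 30823775), the receptor for acetate, propionate and other short-chain fatty acids, moved the other way. It had 12.74, 13.40 and 9.27 TPM in knockout, against 20.10, 22.76 and 22.18 TPM in wild type, with no overlap. Its log2 difference was -0.84 ± 0.14 (adjusted p 0.00829), and the call ended without wild-type replicate 3 (adjusted p 0.0546). Ffar1 and Ffar3 lie beside Ffar2 on chromosome 7. Ffar1 had 0.91, 0.52 and 0.51 TPM in knockout and 0.83, 2.28 and 0.52 TPM in wild type, under the filter, and Ffar3 was at most 0.06 TPM. The long-chain fatty acid receptor gene Ffar4 had 55.27 to 58.61 TPM in knockout, below the 61.18 to 82.94 TPM of wild type, and did not pass (adjusted p 0.0541). Gpr35, which responds to kynurenic acid, had 7.68, 9.53 and 8.75 TPM in knockout and 14.92, 15.69 and 9.67 TPM in wild type (adjusted p 0.0549). Ffar4 passed without wild-type replicate 1 (adjusted p 0.00311) and Gpr35 without wild-type replicate 3 (0.0401).

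Among amine receptor genes, Adrb1 had 26.16, 37.72 and 31.71 TPM in knockout and 25.13, 37.88 and 36.30 TPM in wild type, fully overlapping (adjusted p 0.863). Histamine receptor genes reached at most 0.61 TPM in any library.

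Gprc5c showed the largest fall among the tested members. This gene (Entrez gene 70355, chromosome 11, 114851150 to 114872617), for an orphan class C receptor known to be raised by retinoic acid, had 4.69, 5.37 and 5.79 TPM in knockout replicates 1, 2 and 3, against 12.56, 21.74 and 18.29 TPM in wild type. The highest knockout library was below the lowest wild-type library by a wide margin. The knockout mean was 0.301 times that of wild type, and the log2 difference of -1.53 ± 0.18 (limma adjusted p 0.00165) held as a call in all 16 alternatives, from -1.74 to -1.11. Gprc5a had 0.86 to 1.57 TPM in knockout and 0.58 to 1.11 TPM in wild type (adjusted p 0.291).

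Gpr132, Gpr176, Gpr160 and Cmklr1 complete the members with large differences. Gpr132 (chromosome 12, 112850873 to 112868416), placed with the proton-sensing receptors, had 8.69, 6.64 and 5.78 TPM in knockout replicates 1, 2 and 3, against 4.41, 4.29 and 4.51 TPM in wild type (log2 difference 0.56 ± 0.15, limma adjusted p 0.0401). The orphan receptor gene Gpr176 (chromosome 2, 118277096 to 118374549), known from the circadian clock of the brain, had 3.88, 1.78 and 1.56 TPM in knockout, against 0.79, 0.38 and 0.28 TPM in wild type (1.15 ± 0.26, adjusted p 0.0219). In both, knockout replicate 1 was the highest and no groups overlapped. Their calls ended without knockout replicate 1 or 2 or wild-type replicate 2 or 3, and without the filter. Gpr160 (chromosome 3, 30855759 to 30897194) had 21.97, 20.95 and 23.57 TPM in knockout, against 30.11, 39.13 and 30.68 TPM in wild type (-0.56 ± 0.12, adjusted p 0.0184), and its call ended without knockout replicate 1 or 2 or wild-type replicate 3. Cmklr1, the chemerin receptor gene, had 14.87, 6.59 and 3.27 TPM in knockout, against 1.56, 1.87 and 0.55 TPM in wild type. Every knockout library was above wild type, but the spread among knockout libraries was wide and the log2 difference of 1.83 ± 0.52 did not pass (adjusted p 0.0647). It passed without knockout replicate 3 (adjusted p 0.0164), with library weights (0.0408) and with plain variance moderation (0.0440). The lysosomal gene Gpr155 had 11.80, 10.35 and 14.34 TPM in knockout and 14.31, 24.41 and 20.17 TPM in wild type (adjusted p 0.0508). It passed without wild-type replicate 1 (adjusted p 0.00504) and without knockout replicate 3 (0.0476). Gpr141 had 13.16, 7.76 and 6.95 TPM in knockout and 5.71, 3.53 and 8.09 TPM in wild type, overlapping (adjusted p 0.176). Of the 12 tested genes grouped as orphan or other receptors 1 was higher and 1 lower. Over all tested genes 4.47% were higher and 10.2% lower. In the same group, Gpr157 had 6.06, 6.25 and 6.15 TPM in knockout, below the 8.78, 10.21 and 7.40 TPM of wild type. It did not pass (adjusted p 0.0532), although it did with a minimum of 5 TPM (0.0492) and with library weights (0.0484). Gpr146, Gpr15, Gpr180, Gpr19 and Gpr85 overlapped between genotypes. The proton-sensing receptor gene Gpr65 had 4.72, 5.09 and 3.50 TPM in knockout and 3.68, 2.48 and 3.96 TPM in wild type, overlapping (adjusted p 0.221).

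**Figure D3:**
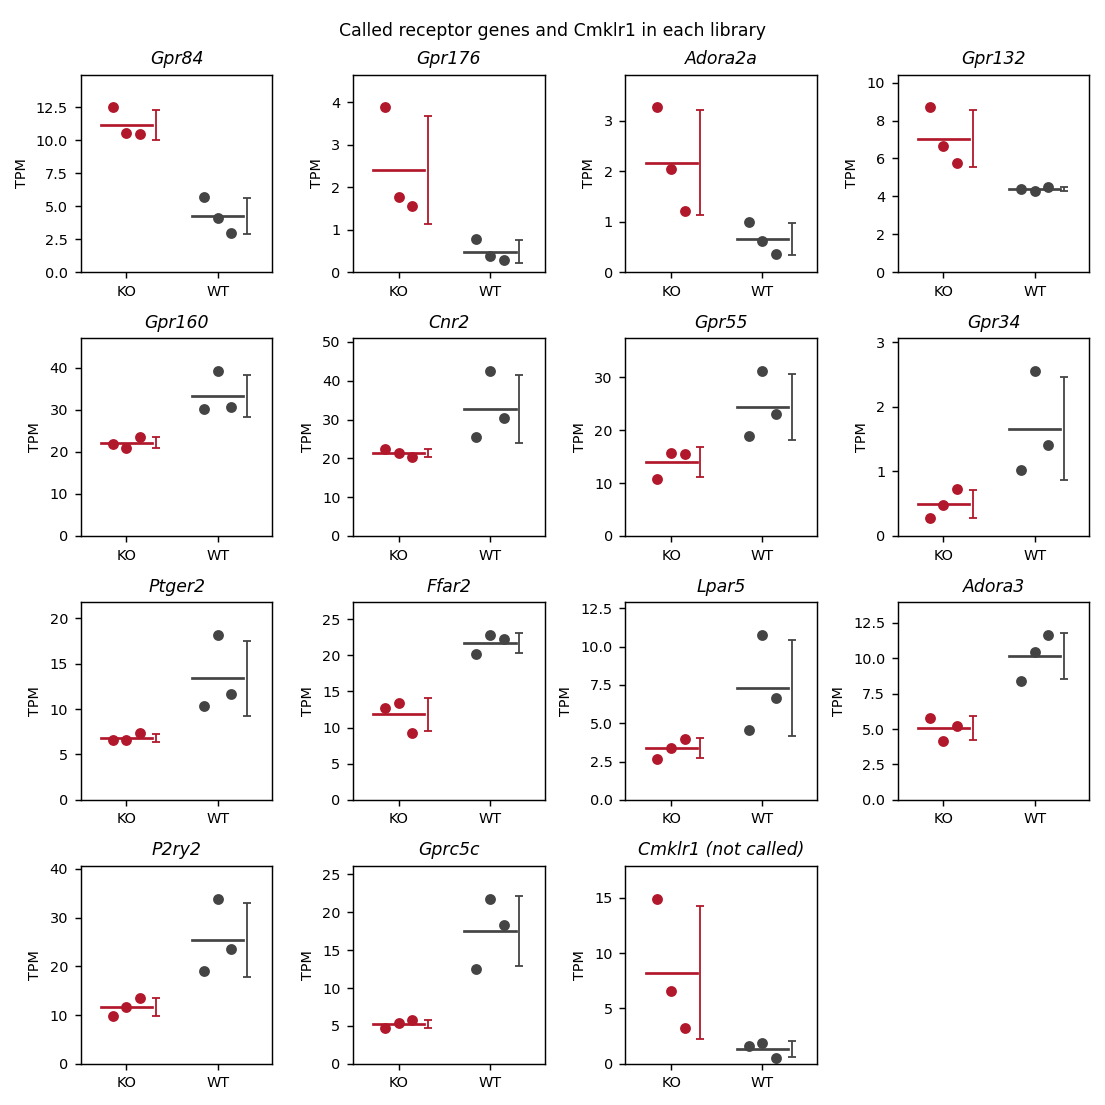
TPM of 14 called members and of Cmklr1 in each library, with knockout (red) left of wild type (dark grey), the group mean as a line and the SD as a bar (n = 3 each), every axis starting at 0. The groups do not overlap in any of the 15 panels, and the widest spread among knockout libraries is that of Cmklr1, from 3.27 to 14.87 TPM.

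Of the 5 tested adhesion receptor genes none passed in the limma fit, and 1 had an unadjusted p under 0.05. That gene, Adgra3, had 1.6, 1.81 and 1.42 TPM in knockout and 2.46, 2.43 and 2.31 TPM in wild type, without overlap (adjusted p 0.0964). Adgre5 had 16.49 to 24.66 TPM in knockout and 8.64 to 21.61 TPM in wild type, and Adgrg1 15.88 to 23.49 TPM in knockout and 15.48 to 28.45 TPM in wild type. Adgrf5, a gene of endothelial and alveolar type II cells, had 4.27, 4.41 and 4.67 TPM in knockout and 3.78, 8.59 and 1.84 TPM in wild type replicates 1, 2 and 3. The endothelial cadherin gene Cdh5 had 5.87, 6.30 and 5.50 TPM in knockout and 4.53, 11.30 and 2.02 TPM in wild type, and S1pr1 had 2.72, 3.65 and 4.34 TPM in knockout and 2.17, 4.36 and 1.0 TPM in wild type. Across the wild-type libraries all 3 genes were highest in replicate 2 and lowest in replicate 3, while in knockout replicate 3 Adgrf5 and S1pr1 were at their highest and Cdh5 at its lowest. Of the other endothelial and mesenchymal markers, Cldn5 and Dcn were also at their highest among knockout libraries in replicate 3. Pecam1, Kdr, Pdgfra, Col1a1, Col1a2 and Col3a1 were at their lowest there. The summed level of 9 endothelial and mesenchymal markers was 45.6 to 55.9 TPM in knockout and 26.3 to 73.4 TPM in wild type, and its part in Adgrf5 and S1pr1 was not tested.

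The filter left 79 of the 140 members untested. The level that decides it is that of the library ranked 3 from the top. Just inside stood 1.02 TPM (Gpr34), 1.05 TPM (Gprc5a) and 1.14 TPM (Gpr33), and just outside 0.83 TPM (Ffar1), 0.75 TPM (Lpar2), 0.72 TPM (Adgre4) and 0.70 TPM (Gpr182). Besides Ffar1, the highest single values outside it were those of Adgrg5, with 0.95, 1.41 and 0.55 TPM in knockout and 0.55, 0.64 and 0.59 TPM in wild type, of Gpr137c, with at most 0.55 TPM in knockout and 1.29 TPM in wild type, and of Gpr182, with at most 0.81 and 1.19 TPM in knockout and wild type.

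Markers of other cells were read in the same libraries. All 10 alveolar macrophage markers were detected. They ran from Krt79, at 168 to 233 TPM in knockout and 302 to 394.5 TPM in wild type, up to Chil3. Chil3 had 10660 to 14025 TPM in knockout and 17310 to 19218 TPM in wild type. Of the 10, 5 were lower in knockout and none higher, where 10.2% of all tested genes were lower and 4.47% higher. Fabp4, Marco and Pparg averaged less in knockout without passing. Car4 and Itgax averaged more without passing, at 2193 and 1171 TPM in knockout and 1481 and 1117 TPM in wild type. Of 7 monocyte markers, Ly6c2 and Plac8 were higher and none lower. Their summed level was 160, 166 and 87.7 TPM in knockout replicates 1, 2 and 3 and 65.2, 82.2 and 70.1 TPM in wild type. Of 6 dendritic cell markers Ccr7 alone was higher, and the sum was 7.44 to 10.4 TPM in knockout and 5.60 to 6.15 TPM in wild type. The higher receptor genes Gpr84, Gpr176, Adora2a and Gpr132, and Cmklr1, were likewise at their lowest among knockout libraries in replicate 3, and at their highest in replicate 1, where the monocyte sum was not. The part of such cells in these receptor genes was not tested. Summed T and NK cell markers were 6.07 to 8.24 TPM in knockout and 4.06 to 7.07 TPM in wild type, and B cell markers 2.94 to 3.58 TPM in knockout and 4.05 to 6.85 TPM in wild type, with Jchain lower. Neutrophil markers summed to 144 to 153 TPM in knockout and 114 to 145 TPM in wild type and were mostly S100a8. Epithelial markers summed to 919 to 1252 TPM in knockout and 1168 to 1233 TPM in wild type and were mostly Krt19, while the eosinophil sum of 355 to 485 TPM in knockout and 190 to 382 TPM in wild type was nearly all Ear6, which has close paralogs that macrophages express. Mast cell and basophil markers summed to 2.62 to 4.09 TPM in knockout and 0.74 to 1.81 TPM in wild type, with Tpsb2 higher. Tpsb2, the only tested marker of this list, had 2.99, 2.38 and 1.61 TPM in knockout against 0, 0 and 0.09 TPM in wild type. It passed the filter only through the knockout libraries, and the untested Gata2 and Cpa3 averaged less in knockout. No listed marker in the table was at 0 in all 6 libraries.

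**Figure D4:**
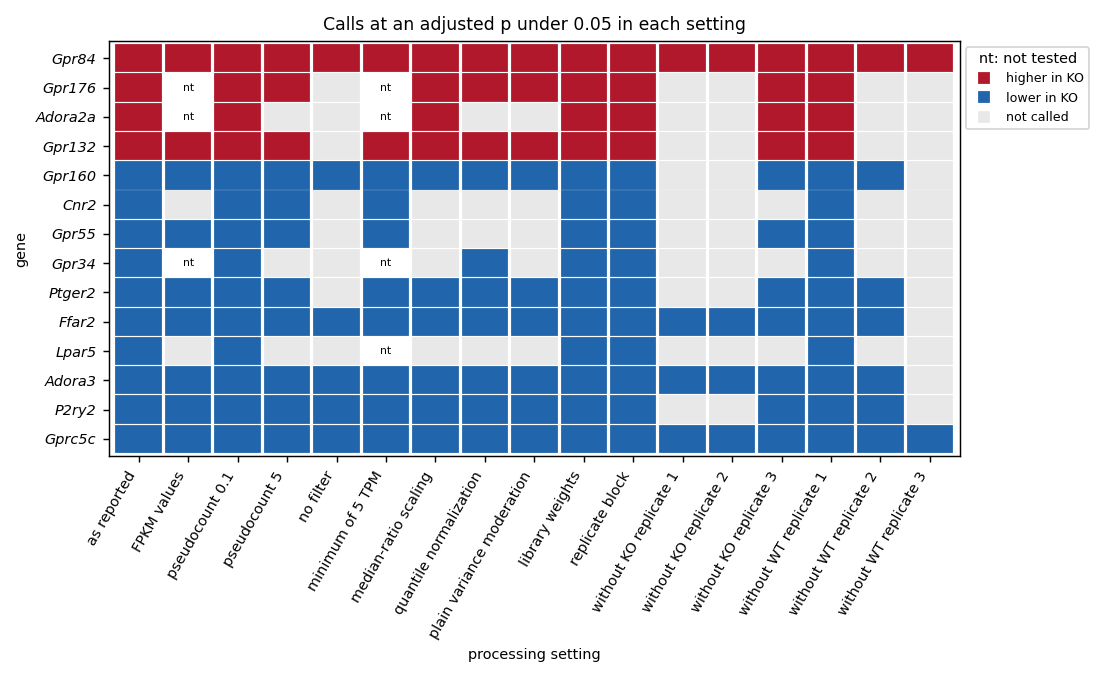
Calls of 14 members (rows) under the fit as reported and 16 alternatives (columns), red for higher in knockout, blue for lower, pale grey for not called and nt for not tested under that filter. Gpr84 and Gprc5c are called in every column, and the columns that leave out knockout replicate 1 or 2 or wild-type replicate 3 hold the fewest calls.

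Genes that act with the receptors were read from lists of G protein subunits, regulators, kinases, cyclases, phosphodiesterases, effectors and genes for the ligands, mostly enzymes. Of 99 tested, 8 were higher (8.08%, against 4.47% of all tested genes) and 18 lower (18.2%, against 10.2%). Among 8 tested G protein alpha subunits, Gnaq, the Gq subunit gene, was lower at 30.4 ± 1.19 TPM in knockout and 39.4 ± 3.81 TPM in wild type (SD, n = 3 each; limma adjusted p 0.0394), and none of 8 beta and gamma subunits passed, with 0 at an unadjusted p under 0.05 (0 adjusted calls also in the alternatives other than library weights and the fit without wild-type replicate 1, which each had 1 lower). Rgs2, which speeds the shut-off of Gq, was the lone call among 7 RGS genes, at 98.4 ± 4.67 TPM in knockout and 148.8 ± 26.7 TPM in wild type (adjusted p 0.0201). The Gnaq call ended after median-ratio scaling or quantile normalization, without the filter, with plain variance moderation and without any 1 library other than wild-type replicate 1, and the Rgs2 call without the filter and without knockout replicate 1 or 2 or wild-type replicate 2 or 3.

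Receptor kinases and arrestin-family genes held 6 lower of 13 tested (46.2%) and no higher one, where 10.2% of all tested genes were lower and 4.47% higher. The list's median log2 difference was -0.43, beside -0.15 over all genes tested. Grk5 and Grk6, kinases that mark active receptors for uncoupling, averaged 15.1 ± 1.43 and 37.1 ± 2.11 TPM in knockout and 24.8 ± 4.46 and 50.9 ± 4.57 TPM in wild type (limma adjusted p 0.0164 and 0.0200). Txnip, an arrestin-fold regulator of glucose uptake, had 238.05, 241.16 and 244.08 TPM in knockout, against 345.97, 649.35 and 480.82 TPM in wild type (adjusted p 0.0284). Arrdc3, an arrestin-fold adaptor of receptor trafficking, had 7.63 to 8.26 TPM in knockout and 11.32 to 18.47 TPM in wild type (adjusted p 0.0305). Grk3 and Arrdc2 were the other lower genes. The beta-arrestin genes Arrb1 and Arrb2 and the kinase gene Grk2 did not pass (adjusted p 0.0686, 0.136 and 0.103). They averaged 15.4, 210.6 and 143.6 TPM in knockout and 23.4, 244.9 and 167.9 TPM in wild type. After median-ratio scaling, quantile normalization or plain variance moderation 4 of the 13 were lower. In those settings 3.55%, 5.28% and 6.05% of all tested genes were lower. Without the filter 3 of the 13 were lower, against 1.9% of all tested genes. Without knockout replicate 1 or 2 the count was 0, where 1.16% and 1.27% of all tested genes were lower. Without knockout replicate 3, wild-type replicate 2 or wild-type replicate 3 it was 2, 3 and 1, where 5.03%, 1.67% and 0.756% of all tested genes were lower. Without wild-type replicate 1 it was 9, where 23.2% of all tested genes were lower.

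In the cyclic AMP pathway the changed genes lay at several steps. Adcy4, an adenylyl cyclase gene and 1 of 3 tested, had 1.42, 1.80 and 2.27 TPM in knockout, against 4.51, 8.0 and 6.20 TPM in wild type (log2 difference -1.34 ± 0.20, limma adjusted p 0.00543). Prkar2b, a regulatory subunit of protein kinase A, had 83.44, 99.06 and 102.5 TPM in knockout, against 152.95, 187.38 and 162.19 TPM in wild type (-0.81 ± 0.11, adjusted p 0.00294). Pkig, an inhibitor of that kinase, averaged 110.0 ± 6.34 TPM in knockout and 83.8 ± 7.29 TPM in wild type (adjusted p 0.0255). Prkar2b and Pkig were the only calls among 14 tested cyclic AMP effector genes, 1 lower and 1 higher (7.14% each). These shares are to be read beside the 10.2% lower and 4.47% higher of all tested genes. Of 9 tested cyclic AMP phosphodiesterases, which break the messenger down, 2 were higher and 2 lower (22.2% each). Over all tested genes 4.47% were higher and 10.2% lower. Pde11a had 4.26, 4.70 and 5.01 TPM in knockout and is listed at 0 in each wild-type library (adjusted p 8.50e-06), and Pde10a had 2.01, 3.97 and 2.26 TPM in knockout against 0.47, 0.22 and 0.10 TPM in wild type (adjusted p 0.00458). Both passed the filter only through the knockout libraries. Pde3b averaged 25.1 ± 3.23 TPM in knockout and 37.2 ± 3.07 TPM in wild type and Pde7a 12.2 ± 0.775 TPM in knockout and 17.8 ± 3.42 TPM in wild type (adjusted p 0.0175 and 0.0442). The Adcy4, Prkar2b, Pde11a and Pde10a calls held in every alternative that tested them. Those of Pkig, Pde3b and Pde7a ended without knockout replicate 1 or 2 or wild-type replicate 2 or 3, those of Pkig and Pde7a also without the filter and with plain variance moderation, and that of Pde7a also without knockout replicate 3 and after median-ratio scaling or quantile normalization.

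**Figure D5:**
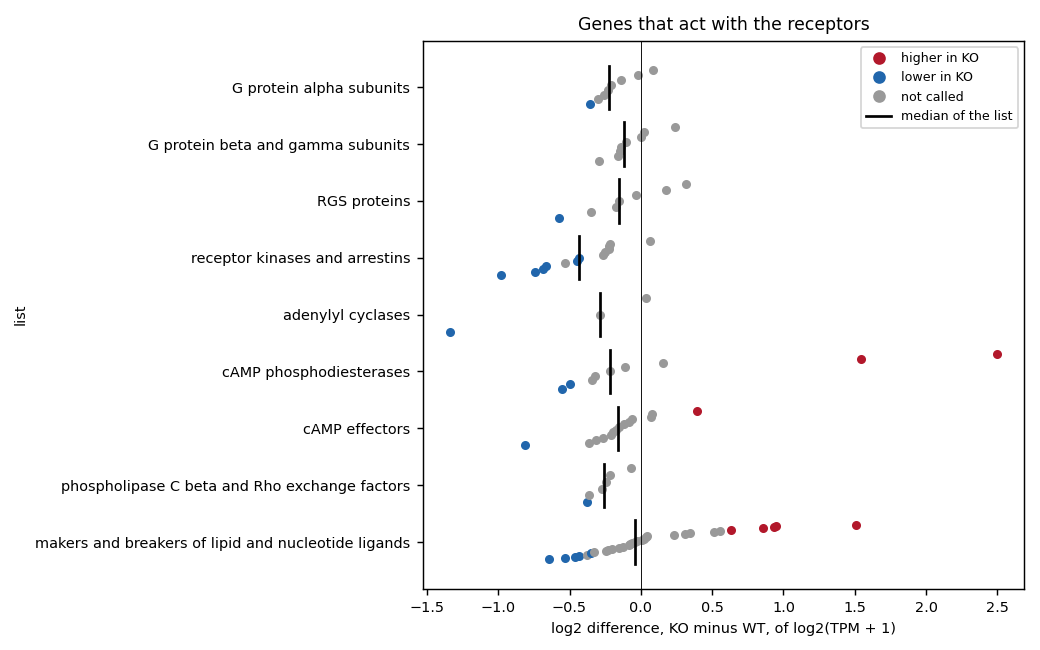
Log2 difference (knockout minus wild type, of log2(TPM + 1)) of each tested gene in 9 lists of genes that act with the receptors, with the list median as a black line, red for higher and blue for lower at an adjusted p under 0.05. The receptor kinase and arrestin list holds 6 lower genes of 13, and Pde11a and Pde10a lie farthest right.

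The list of genes for the receptors' ligands, mostly enzymes that make or remove them, held 5 higher and 5 lower of 31 tested (16.1% each). Over all tested genes 4.47% were higher and 10.2% lower. The list also took in Rarres2, Panx1, Spns2 and Alox5ap, which encode no enzyme and did not pass. Napepld, whose product releases anandamide-type lipids from their precursors, rose to 13.6 ± 2.16 TPM in knockout, against 6.53 ± 0.528 TPM in wild type (SD, n = 3 each, limma adjusted p 0.00474). Sphk1, the kinase that makes sphingosine 1-phosphate, had 3.92, 3.43 and 3.15 TPM in knockout, against 1.57, 0.20 and 0.27 TPM in wild type (adjusted p 0.0125), and its call ended without wild-type replicate 2 or 3. Plpp1, a phosphatase that removes lysophosphatidic acid, averaged 52.1 ± 4.86 TPM in knockout and 33.4 ± 5.07 TPM in wild type (adjusted p 0.0131), and its call ended without knockout replicate 1 or wild-type replicate 2 or 3. Lta4h, the hydrolase that makes leukotriene B4, fell to 84.4 ± 4.26 TPM in knockout, against 122.6 ± 9.13 TPM in wild type (adjusted p 0.00798). The Napepld and Lta4h calls held in all 16 alternatives. After median-ratio scaling 7 of the 31 were higher and 2 lower, where 5.33% of all tested genes were higher and 3.55% lower. With 1 library left out the higher ones numbered 1 without wild-type replicate 3, 2 without wild-type replicate 2, 3 without knockout replicate 1 and 4 to 6 otherwise, and the lower ones 1 or 2, except 7 without wild-type replicate 1.

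By the G protein they are best known for, 8 tested receptor genes were taken as Gs-coupled, 12 as Gi-coupled and 5 as Gq-coupled. Among the Gs-coupled ones, Adora2a was higher and Ptger2 lower. Among the Gi-coupled ones, Gpr84 was higher and Adora3, Ffar2, Cnr2 and Gpr34 lower. P2ry2 was the lower one of the 5 Gq-coupled genes. Over all tested genes 4.47% were higher and 10.2% lower. Adora2a passed the filter only through the knockout libraries and Gpr34 only through the wild-type libraries. After median-ratio scaling the Gi class kept 1 higher (Gpr84) and 2 lower (Adora3 and Ffar2). In that setting 5.33% of all tested genes were higher and 3.55% lower. The classes were not tested as such.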

How the data were processed

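Bulk RNA-seq of primary alveolar macrophages gave 3 Trim33 knockout and 3 wild-type libraries, grouped by the sample titles. The labels' protocols give TRIzol extraction and an MGI library kit. Named without roles in the submitters' processing notes are HISAT2 2.0.4, Bowtie2 2.2.5 and GRCm38.p6. Which program estimated expression, from which annotation and with what use of strand, is not given in the sources used here. As deposited, the tables hold the authors' TPM values and FPKM values per gene, per the file headers, rounded to 2 decimals. No common step that would give relative depth was found among low FPKM values, where the most frequent ratio to wild-type replicate 1 was 1 in each library. No pair of libraries was a duplicate (at most 0.369% identical values).

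Knockout was set against wild type by limma 3.58.1 (R 4.3.3), fitted to log2(TPM + 1) with moderated variances (trend, robust). Genes entered the fit from 1 TPM upward in 3 or more of 6 libraries, and p-values were adjusted over all 11111 by Benjamini-Hochberg. On this scale a low gene's log2 difference comes out too small. A ratio or fold in the text is one of mean TPM. The fit was tested on simulated data. The members, the lists and the grouping by family and G protein were chosen with earlier results of these data known. Named genes were Trim33, all called members, the 8 most abundant tested members, the 4 largest uncalled differences, the 4 highest members outside the filter, and up to 4 called genes per list with the smallest adjusted p. A few genes that these rules name are not reported here. Other names (neighbours, paralogs, family members, markers, Grk2, Grk3, Arrb1, Arrb2 and Arrdc2) were added after their values were seen. Coordinates and promoters come from RefSeq on GRCm38.p6, where all 140 members matched by Entrez ID, and overlaps from GENCODE M21. Figures were drawn with matplotlib 3.10.9. Alternatives changed the unit (FPKM), the pseudocount (0.1 or 5), the filter (none, or 5 TPM), the scaling (median-ratio or quantile), the variance model (plain moderation, or library weights) or the design (a replicate block, or 1 library left out).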

Additional observations from a re-analysis of the deposited data

How the results depend on the processing

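Of 950 values of single members recomputed under the alternatives, 847 kept direction and side of the threshold or remained uncalled, 68 lost a call, 35 gained one and 0 turned direction with a call. Members higher and lower numbered 4 and 11 as reported. They were 2 and 8 on FPKM values, 1 and 7 without the filter, 2 and 12 with a minimum of 5 TPM, 4 and 7 after median-ratio scaling, and 8 and 18 with library weights. Genes higher and lower over the whole table, 497 and 1129 as reported, were 348 and 326 without the filter, 592 and 394 after median-ratio scaling, 559 and 587 after quantile normalization, 469 and 672 with plain variance moderation, and 1004 and 2552 with library weights. Signalling genes higher and lower, 8 and 18 as reported, were 7 and 7, 10 and 10, 9 and 12, 8 and 10, and 13 and 28 under the same alternatives, and 4 and 18 with a minimum of 5 TPM. The members' median moved to 0.021 after median-ratio scaling, which removes a shift between libraries by construction. For the other changes the cause was not tested. With 1 library left out, members higher ran from 1 to 6 and lower from 3 to 17, genes over the table from 124 to 800 higher and 84 to 2577 lower, and signalling genes from 3 to 10 higher and 3 to 31 lower. The correlations of same-numbered deviations were 0.323, -0.033 and 0.0854, and those of other pairs ran from -0.362 to 0.298. With 3 of 6 libraries correlating best with their own number, whether replicate numbers pair the libraries cannot be told from these values. The fit with the replicate block gave 7 members higher and 16 lower, 753 and 2147 genes over the table, and 9 and 25 signalling genes. Members that passed under it and not as reported were Cmklr1 (adjusted p 0.000834), P2ry14, Gpr155, Adgre5, Ffar4, Gpr157, Gpr35 and Ptgir. Depth is unknown, so how far it limits the low genes cannot be stated.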
